A study of Mus musculus with 6 samples.

Results

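The mouse genes of cholesterol synthesis and its regulator SREBP2 were followed in macrophages given interleukin-4 (IL-4). The members were the genes of a fixed list whose symbol stands in the deposited expression table, 27 of 25124 genes, taken in the order of the pathway. All 27 were found, and all passed the filter on low values, against 11235 genes in the whole table. The cells were bone marrow-derived macrophages (BMDM), grown from the marrow of 8-week-old wild-type C57BL/6 mice for 7 days with macrophage colony-stimulating factor (M-CSF) at 20 ng/ml. The M0 group of 3 libraries stayed in 20 ng/ml M-CSF, and the M2 group of 3 libraries had 10 ng/ml IL-4 added to the same M-CSF for 4 h. IL-4 is the cytokine that drives alternative activation of macrophages. No label says whether the libraries of a group came from separate animals or cultures, so the p-values measure only the spread between these libraries.

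Animal cells build cholesterol from acetyl-CoA through mevalonate, the isoprenoid diphosphates, squalene and a series of sterols that are trimmed and reduced step by step. The transcription factor SREBP2 is made as a membrane protein of the endoplasmic reticulum, where Scap binds it and the Insig proteins hold the pair back while sterols are plentiful. When sterols run low, the pair moves to the Golgi, a pair of proteases frees the active part of SREBP2, and the genes of the pathway are transcribed.

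The labelled cell type was checked first. All 6 macrophage markers (Csf1r, Adgre1, Cd68, Itgam, Lyz2 and Mertk) were present, with summed values of 16120 to 17260 TPM (a level scaled for transcript length and depth) in M0 and 15110 to 15480 TPM in M2. The 4 markers of T and NK cells summed to at most 0.0990 TPM and the 3 of B cells to at most 0.235 TPM in any library, and the 3 erythroid markers were at 0 in every library. The 4 mast cell and basophil markers summed to 0.326 to 0.358 TPM in M0 and 0.101 to 0.153 TPM in M2, with Mcpt8 at 0. The 5 neutrophil markers summed to 26.3 to 33.7 TPM in M0 and 24.4 to 30.3 TPM in M2, nearly all of it S100a8 and S100a9. The 3 dendritic cell markers summed to 0.263 to 0.470 TPM in M0 and 1.06 to 1.30 TPM in M2, and the 5 of stroma and endothelium to 11.6 to 12.5 TPM in M0 and 6.53 to 7.00 TPM in M2; their part in the results was not tested. The deposited values stood for 16913185 to 19019896 reads per library, and 1 read in a 1-kb transcript was worth 0.0610 to 0.0700 TPM. M0 replicate 2 stood apart from M0 replicates 1 and 3, at 9.52 and 10.7 chi-square units per degree of freedom, against 2.31 between those 2, and a member's value without it is given where the call changed or the value moved by over 1.5 times. In RNA from whole cultures, fewer cells of a kind and less RNA per cell cannot be told apart.

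The 27 genes did not move as a block. By limma's moderated test on log2(TPM + 1), with Benjamini-Hochberg adjustment over all genes tested and a threshold of 0.05, 4 of 27 rose in M2 (14.8%), 14 fell (51.9%) and 9 did not pass. Of all 11235 genes tested, 17.7% rose and 45.3% fell, so the members' counts lay near the background and are no result about the pathway as a whole. All 3 M2 libraries lay above all 3 M0 libraries for 4 members (14.8%, against 19.6% of all genes tested), and below them for 14 (51.9%, against 49.8%). The median log2 fold change was -0.18 over the members and -0.15 over all genes tested. The members' log2 fold changes ran from -0.93 for Lbr to 1.24 for Dhcr7. The spread over all genes tested was not computed, so this range is a description only.

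Because the median of all genes lay below 0, each library was also divided by its median-ratio factor (1.05 to 1.09 in M0, 0.940 to 0.943 in M2), which brought the median of all genes to 0.0034. On this median-scaled TPM, 8 members rose (29.6%, against 28.9% of all genes tested) and 9 fell (33.3%, against 28.0%). All 9 of these also fell on the deposited scale, and all 4 that rose on the deposited scale also rose on this one. Which scale is right cannot be told from these files, so both values are given for each gene that passed. In the authors' deposited table, 7 members were higher in M2 and 8 lower at an adjusted p under 0.05, that is 25.9% and 29.6%, against 25.8% and 25.8% of the same 11235 genes.

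**Figure D1:**
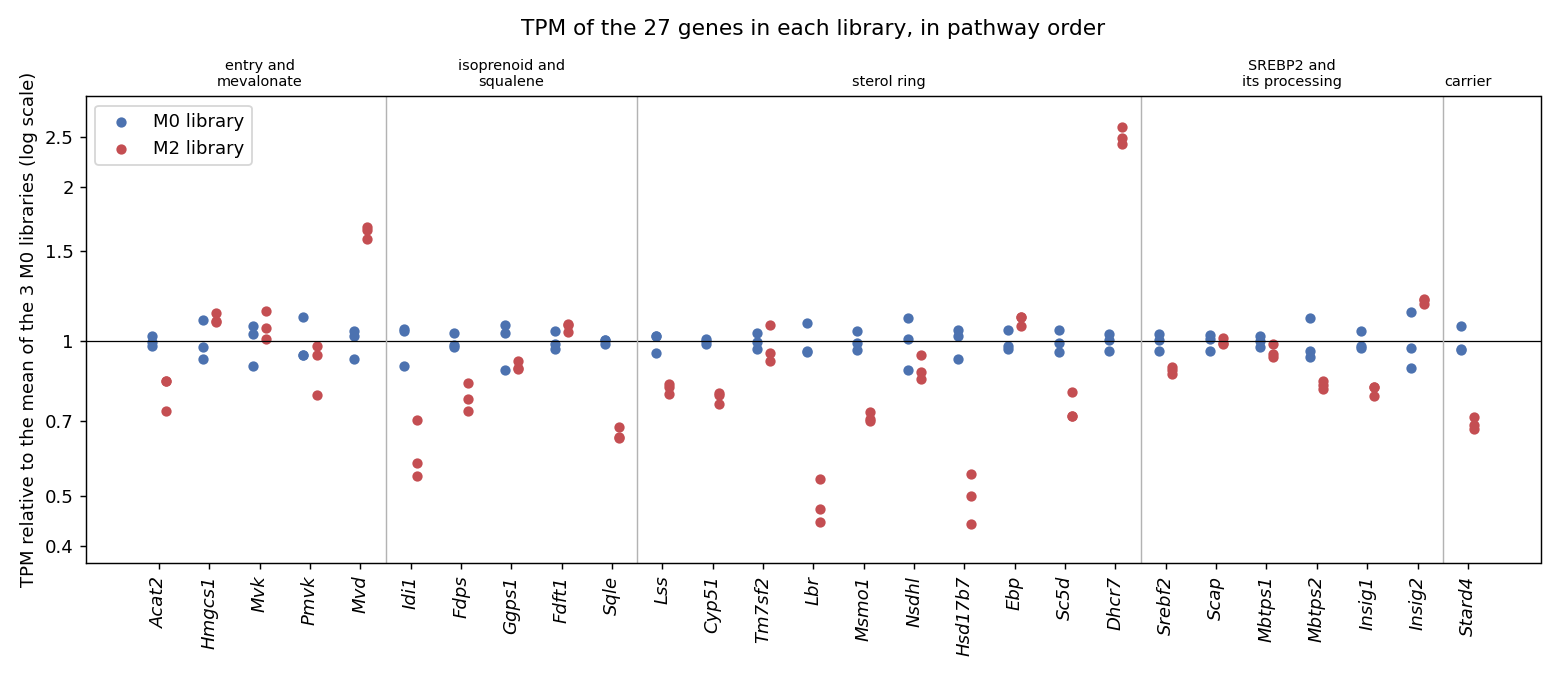
TPM of each gene in each library, divided by the mean of the 3 M0 libraries, on a log axis; blue points are M0 libraries, red points M2 libraries, and genes stand in pathway order. Dhcr7 and Mvd lie far above 1 in all 3 M2 libraries, whereas Lbr and Hsd17b7 lie near 0.5.

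The stretches of DNA before the genes' starts are shown for the 5 members on which the results turn most. These are the gene with the only match to TCACNCCAC (Hmgcs1), the 2 largest rises (Dhcr7 and Mvd) and the 2 largest falls (Hsd17b7 and Lbr). The stretches are the 250 bases upstream of the deposited start, from RefSeq's promoters on GRCm38.p6 (the assembly also called mm10). They are written 5′ to 3′ on the gene's own strand. Capitals mark matches, on either strand, to TCACNCCAC (the core of a sterol regulatory element, to which SREBP proteins bind), CCAAT (the box bound by NF-Y, or ATTGG where it lies on the other strand) and CACGTG (an E-box).
Hmgcs1, chr13:119690101-119690350, plus strand: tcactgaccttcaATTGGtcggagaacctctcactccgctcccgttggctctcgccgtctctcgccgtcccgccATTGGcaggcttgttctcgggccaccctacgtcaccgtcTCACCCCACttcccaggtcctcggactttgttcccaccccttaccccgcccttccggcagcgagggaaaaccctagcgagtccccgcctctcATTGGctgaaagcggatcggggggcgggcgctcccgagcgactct
Dhcr7, chr7:143822917-143823166, plus strand: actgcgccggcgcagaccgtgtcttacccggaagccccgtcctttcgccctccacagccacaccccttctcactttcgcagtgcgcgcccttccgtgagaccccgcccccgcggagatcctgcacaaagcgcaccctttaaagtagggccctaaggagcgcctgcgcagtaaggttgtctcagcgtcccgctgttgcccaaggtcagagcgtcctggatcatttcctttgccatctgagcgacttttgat
Mvd, chr8:122443423-122443672, minus strand: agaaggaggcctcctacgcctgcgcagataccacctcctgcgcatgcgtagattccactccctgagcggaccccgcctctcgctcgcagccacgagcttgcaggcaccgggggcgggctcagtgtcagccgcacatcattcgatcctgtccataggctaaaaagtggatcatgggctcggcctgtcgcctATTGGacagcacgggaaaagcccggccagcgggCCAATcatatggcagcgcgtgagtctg
Hsd17b7, chr1:169969206-169969455, minus strand: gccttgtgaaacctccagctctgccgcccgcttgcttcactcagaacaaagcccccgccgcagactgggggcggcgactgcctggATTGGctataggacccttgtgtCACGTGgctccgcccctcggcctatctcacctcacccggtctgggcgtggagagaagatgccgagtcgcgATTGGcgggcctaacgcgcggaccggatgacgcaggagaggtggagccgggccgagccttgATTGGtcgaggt
Lbr, chr1:181842402-181842651, minus strand: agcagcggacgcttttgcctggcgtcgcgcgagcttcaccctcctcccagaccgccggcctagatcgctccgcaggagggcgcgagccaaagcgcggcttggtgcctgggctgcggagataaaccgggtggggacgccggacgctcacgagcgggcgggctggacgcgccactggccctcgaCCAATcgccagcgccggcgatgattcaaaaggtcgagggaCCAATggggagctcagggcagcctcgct

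RefSeq's table held 23 of the 27 genes, some with several starts, in 29 windows. Fdps, Fdft1, Sqle and Stard4 had no window and were not searched. TCACNCCAC was found in 1 window, that of Hmgcs1 from -137 to -129 counted from the start, against 1.05% of 32851 promoters of the same length. CCAAT was found in 19 of the 29 windows against 33.8% of all promoters, and GGGCGG (the box bound by Sp1) in 22 of 29 against 32.7%. CACGTG was found in 5 of 29 windows against 6.02%, and TTCNNNNGAA (the spacing to which STAT6, the factor activated by IL-4, binds) in 1, that of Ggps1, against 5.85%. Each motif was sought on its own on both strands, and those in capitals do not overlap in the windows shown. CCAAT stood in windows of genes that rose (Mvd at -60 to -56 and -27 to -23) and of genes that fell (Lbr at -68 to -64 and -28 to -24; Hsd17b7 at 3 places, with an E-box at -143 to -138). The window at the deposited start of Dhcr7 held none of the 3 motifs in capitals; RefSeq lists 2 further Dhcr7 starts downstream, 1 with an E-box and 1 with 2 CCAAT matches before it. The table of TPM gives 1 value per gene, so use of these starts cannot be told apart here. A match of letters is a description and not a bound site. Sterol elements with other letters, or outside these windows, were not sought, so genes without a match are not shown to lack such an element.

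The first steps make mevalonate and turn it into the isoprene unit. Of these 5 genes, 1 rose (Mvd), 1 fell (Acat2) and 3 did not pass; on median-scaled TPM, 3 rose and none fell. The share of all genes tested was 17.7% for rises and 45.3% for falls on the deposited scale, and 28.9% and 28.0% on median-scaled TPM; with 5 to 10 genes a step, the counts by step are a description only. The summed level of the 5 genes was 78.4, 80.9 and 82.3 TPM in the M0 libraries and 96.4, 93.8 and 93.9 TPM in the M2 libraries, without overlap. This sum does not describe the genes alike. The mean of Mvd went from 18.3 to 30.0 TPM, that of Hmgcs1 from 35.2 to 39.0 TPM and that of Mvk from 10.4 to 11.2 TPM. Those of Pmvk (12.6 to 11.3 TPM) and Acat2 (4.02 to 3.22 TPM) were lower in M2.

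Mvd, the decarboxylase that closes the mevalonate part of the pathway, gave 18.8, 17.0 and 19.2 TPM in M0 and 30.6, 30.2 and 29.1 TPM in M2. All M2 libraries lay above all M0 libraries, and the values within a group were close. The mean went from 18.3 ± 1.21 to 30.0 ± 0.781 TPM (SD, n = 3 each), and the log2 fold change by limma was 0.68 (SE 0.0606, adjusted p = 4.85e-06), or 0.85 on median-scaled TPM. Its transcript NM_138656 has 10 exons and lies at chr8:122433596-122443422 on the minus strand.

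Hmgcs1, the synthase that adds the third acetyl unit, gave 32.5, 38.8 and 34.3 TPM in M0 and 40.1, 38.4 and 38.6 TPM in M2. The groups overlapped only through M0 replicate 2, and the log2 fold change of 0.15 (adjusted p = 0.0719, limma) did not pass. Without that library limma gave 0.22 (adjusted p = 0.00166), and on median-scaled TPM 0.32 (adjusted p = 0.00118), so the call for Hmgcs1 rests on 1 library and on the scale. Of the exon bases of Hmgcs1, 17.2% also lie in an annotated gene on the other strand (Gm48342).

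Acat2, which joins acetyl-CoA units at the entry of the pathway, gave 4.11, 3.94 and 4.00 TPM in M0 and 2.94, 3.36 and 3.37 TPM in M2. Its fall of -0.25 (SE 0.0791, adjusted p = 0.0187, limma) became -0.11 on median-scaled TPM (adjusted p = 0.223), so the call did not hold there, nor without M0 replicate 1 (adjusted p = 0.0552) or M2 replicate 1 (adjusted p = 0.0896). Mvk and Pmvk, the kinases that phosphorylate mevalonate in turn, overlapped between groups. Mvk ranged from 9.35 to 11.1 TPM in M0 and from 10.5 to 11.9 TPM in M2 (log2 fold change 0.09, adjusted p = 0.331; 0.25 with adjusted p = 0.0294 on median-scaled TPM, and 0.02 without M0 replicate 2, limma). Pmvk ranged from 11.8 to 14.0 TPM in M0 and from 9.86 to 12.3 TPM in M2, with a log2 fold change of -0.14 that turned to 0.02 on median-scaled TPM and passed on neither; without M0 replicate 3 it was -0.06 and without M2 replicate 2 it was -0.05.

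The next 5 genes turn isoprene units into longer chains and squalene. On both scales the same 3 genes fell (Idi1, Fdps and Sqle), and none rose on the deposited scale. Their summed level was 157 to 166 TPM in M0 and 139 to 144 TPM in M2.

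Sqle, the epoxidase that turns squalene into squalene epoxide and is often rate-limiting, gave 38.6, 38.0 and 38.7 TPM in M0 and 25.0, 25.1 and 26.2 TPM in M2. The groups were far apart for their spread, with means of 38.5 ± 0.373 and 25.4 ± 0.713 TPM (SD, n = 3 each). The log2 fold change was -0.58 (SE 0.0481, adjusted p = 2.84e-06, limma), and -0.41 on median-scaled TPM.

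Idi1, the isomerase that makes the second isoprene unit, gave 2.74, 3.24 and 3.20 TPM in M0 and 1.67, 1.77 and 2.15 TPM in M2. It fell without overlap by 0.50 on the log2 scale (SE 0.0964, adjusted p = 0.00112, limma), and by 0.38 on median-scaled TPM. It was the member with the fewest reads, 70 in its lowest library, and 10.7% of its exon bases also lie in Gm48574 on the other strand. Mvd makes the substrate of Idi1, so the 2 neighbours in the pathway moved in opposite directions.

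Fdps, which builds farnesyl diphosphate, the branch point to sterols, prenylated proteins and dolichol, gave 42.1, 44.3 and 41.8 TPM in M0 and 35.4, 32.9 and 31.3 TPM in M2. The groups did not overlap, and the log2 fold change was -0.36 (adjusted p = 3.40e-04), or -0.19 (adjusted p = 0.0144) on median-scaled TPM, by limma. In the authors' deposited table the change of Fdps was -0.16 with an adjusted p of 0.110, a value for another transcript of the gene. Another annotated gene on the same strand, Gm43738, shares 76.4% of its exon bases, so its reads could have been split and its level is uncertain.

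Fdft1, the squalene synthase, was the most abundant member, with 70.0, 74.2 and 68.4 TPM in M0 and 76.4, 73.8 and 76.7 TPM in M2. The groups overlapped, and the log2 fold change of 0.09 (adjusted p = 0.102, limma) did not pass, but it was 0.26 (adjusted p = 4.75e-04) on median-scaled TPM and 0.13 (adjusted p = 0.00869) without M0 replicate 2. The end of Fdft1 lies over 773 bases of Ctsb on the other strand, a protease gene whose mean level was 4345 TPM (M0) and 4429 TPM (M2). No source used here says whether counting took account of strand, so the level of Fdft1 is uncertain. Ggps1, which makes geranylgeranyl diphosphate for protein prenylation, ranged from 5.06 to 6.20 TPM in M0 and from 5.07 to 5.27 TPM in M2 and did not pass (log2 fold change -0.13, and 0.01 on median-scaled TPM). Its value was -0.08 without M0 replicate 2 and -0.21 without M0 replicate 3, where it passed (adjusted p = 0.0470, limma).

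From squalene epoxide to cholesterol, 10 genes work on the sterol ring. Of these, 2 rose (Ebp and Dhcr7), 6 fell and 2 did not pass; on median-scaled TPM, 2 rose and 5 fell. The largest rise and the largest fall among the 27 genes were both in this stretch.

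Dhcr7, the reductase that turns 7-dehydrocholesterol into cholesterol, gave 9.37, 9.14 and 8.68 TPM in M0 and 22.6, 22.0 and 23.7 TPM in M2. The lowest M2 library was far above the highest M0 library. The mean went from 9.06 ± 0.350 to 22.8 ± 0.839 TPM (SD, n = 3 each), and the log2 fold change was 1.24 (SE 0.0602, adjusted p = 5.10e-08, limma), or 1.40 on median-scaled TPM. In the authors' deposited table the change was 1.49 with an adjusted p of 1.02e-64. The transcript NM_007856 has 9 exons at chr7:143823167-143848410 on the plus strand.

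Lbr, an inner nuclear membrane protein that binds lamins and chromatin and is also a sterol reductase, gave 11.1, 12.5 and 11.0 TPM in M0 and 6.22, 5.13 and 5.43 TPM in M2. The groups did not overlap, and the M2 mean of 5.59 ± 0.563 TPM was 0.485 times the M0 mean of 11.5 ± 0.875 TPM (SD, n = 3 each). The log2 fold change was -0.93 (SE 0.0846, adjusted p = 5.74e-06, limma) and -0.77 on median-scaled TPM. Tm7sf2 encodes the other enzyme for that reductase step and gave 9.04, 8.42 and 8.68 TPM in M0 and 8.29, 9.36 and 7.98 TPM in M2. Its groups overlapped, and its log2 fold change of -0.03 (95% interval -0.19 to 0.14, limma) did not pass; it was 0.13 on median-scaled TPM, where it did not pass either, and ran from -0.09 to 0.01 with each library left out (-0.05 without M0 replicate 2). Of the exon bases of Lbr, 12.5% also lie in Dnah14 on the other strand.

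Removal of the methyl groups at carbon 4 of the ring takes Msmo1, Nsdhl and Hsd17b7 in turn. Msmo1, the oxidase that starts it, gave 64.1, 67.6 and 62.2 TPM in M0 and 47.0, 45.6 and 45.2 TPM in M2, and fell by 0.48 on the log2 scale (SE 0.0478, adjusted p = 1.06e-05, limma; -0.31 on median-scaled TPM). Hsd17b7, the keto-reductase that ends it, gave 5.18, 5.33 and 4.68 TPM in M0 and 2.80, 2.53 and 2.23 TPM in M2. Both genes separated the groups, and the log2 fold change of Hsd17b7 was -0.79 (SE 0.0892, adjusted p = 2.92e-05, limma), or -0.65 on median-scaled TPM. Nsdhl, the dehydrogenase between them, gave 9.41, 11.9 and 10.8 TPM in M0 and 10.1, 9.33 and 9.03 TPM in M2; the groups overlapped, and -0.16 (adjusted p = 0.139, limma; 0.0016 on median-scaled TPM) did not pass. Its value was -0.08 without M0 replicate 2 and -0.24 without M0 replicate 1, where it passed (adjusted p = 0.0326, limma).

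Of the remaining ring enzymes, 3 were lower in every M2 library. Cyp51, the cytochrome P450 that removes a methyl group from lanosterol, gave 18.2 to 18.6 TPM in M0 and 13.9 to 14.6 TPM in M2 and fell by 0.34 on the log2 scale (adjusted p = 3.41e-04; -0.18 with adjusted p = 0.0127 on median-scaled TPM, limma). Sc5d, the desaturase that makes 7-dehydrocholesterol and so stands just before Dhcr7, gave 16.2, 18.0 and 17.0 TPM in M0 and 12.2, 12.2 and 13.6 TPM in M2. It fell by 0.40 on the log2 scale (SE 0.0669, adjusted p = 4.47e-04, limma), and by 0.24 on median-scaled TPM. Lss, the cyclase that folds squalene epoxide into lanosterol, gave 4.41 to 4.77 TPM in M0 and 3.67 to 3.84 TPM in M2; its fall of -0.24 (adjusted p = 0.0151, limma) did not hold on median-scaled TPM (-0.10, adjusted p = 0.214), nor without M2 replicate 3 (adjusted p = 0.0594). Shares of the exon bases of Cyp51 (4.22%) and Lss (8.16%) also lie in genes on the other strand. For Lss the share is of 4667 annotated exon bases, against a deposited length of 6305 bases. Ebp, the isomerase that shifts a ring double bond, gave 30.5, 28.3 and 27.9 TPM in M0 and 31.0, 32.2 and 32.3 TPM in M2. It rose with a small change of 0.13 (SE 0.0531, adjusted p = 0.0472, limma; 0.30 with adjusted p = 0.00103 on median-scaled TPM), and the deposited-scale call was lost when M0 replicate 2 (adjusted p = 0.0502), M0 replicate 3 or any M2 library was left out.

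**Figure D2:**
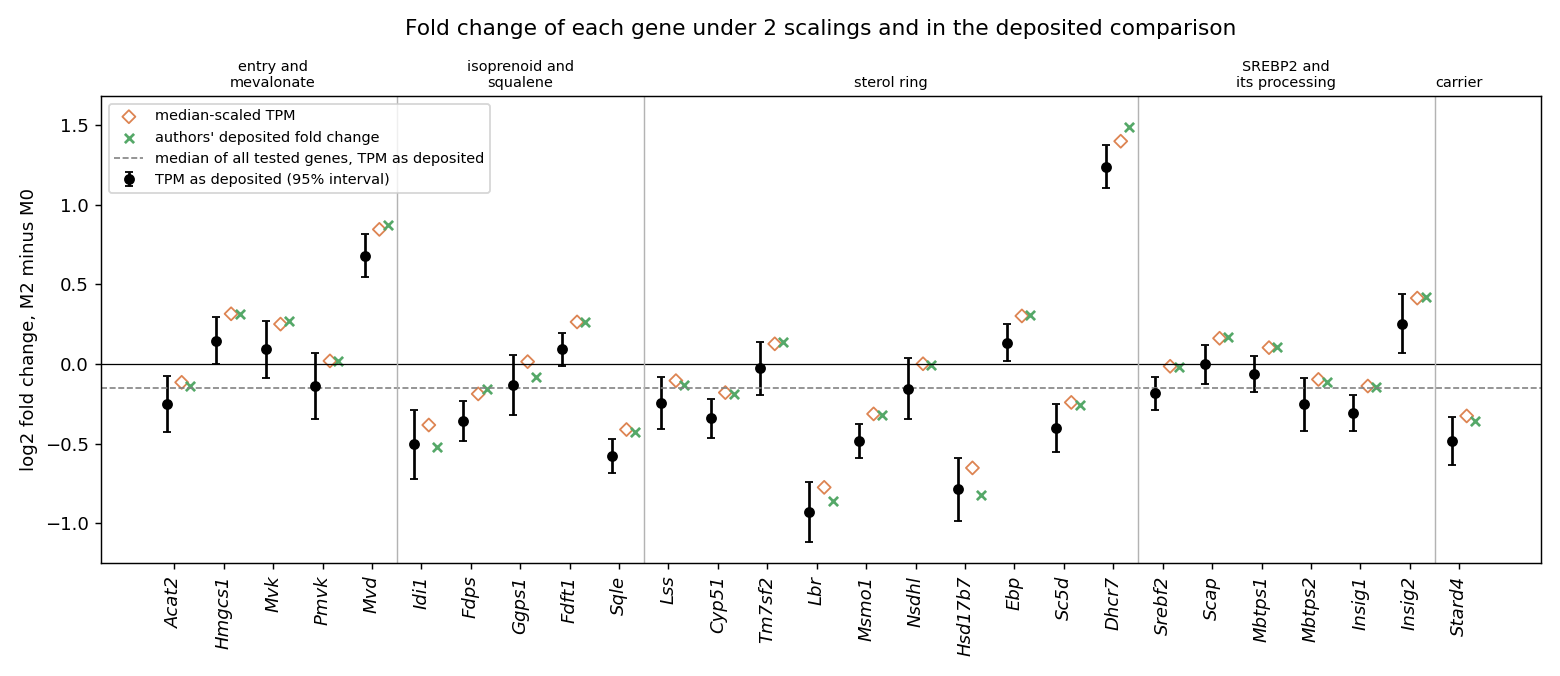
Log2 fold change, M2 minus M0, for each gene: black points are limma's estimates on log2(TPM + 1) with 95% intervals, diamonds the same on median-scaled TPM, and crosses the fold changes of the authors' deposited table. The dashed line is the median of all genes tested, -0.15; Dhcr7 and Mvd lie above it and Lbr, Hsd17b7 and Sqle below 0 by all 3 measures, whereas Srebf2 moves from -0.18 to -0.01.

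Of the 6 genes for SREBP2 and its processing, 1 rose (Insig2), 3 fell (Srebf2, Mbtps2 and Insig1) and 2 did not pass; on median-scaled TPM, 2 rose (Scap and Insig2) and none fell. Srebf2, which encodes SREBP2, gave 59.8, 58.2 and 55.4 TPM in M0 and 51.6, 49.8 and 50.8 TPM in M2. The groups did not overlap, but the fall of -0.18 (SE 0.0468, adjusted p = 0.00618, limma) lay close to the median of all genes, and was -0.01 (adjusted p = 0.811) on median-scaled TPM. In the authors' deposited table the value for Srebf2 was -0.02 with an adjusted p of 0.841.

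Insig1 and Insig2 encode the 2 retention proteins, of which Insig1 is itself a target of SREBP2. Insig1 gave 38.2, 37.8 and 40.8 TPM in M0 and 30.4, 31.8 and 31.7 TPM in M2, whereas Insig2 gave 12.4, 15.9 and 13.5 TPM in M0 and 16.8, 16.5 and 16.8 TPM in M2. Both separated the groups, in opposite directions. Insig1 fell by 0.31 on the log2 scale (SE 0.0512, adjusted p = 4.70e-04, limma), a call that did not hold on median-scaled TPM (-0.14, adjusted p = 0.0526). Insig2 rose by 0.25 (SE 0.0831, adjusted p = 0.0224, limma) and by 0.41 on median-scaled TPM (adjusted p = 0.00107). Its highest M0 value came from M0 replicate 2; without that library the change was 0.35 (adjusted p = 4.82e-04), whereas leaving out either other M0 library or any M2 library took the adjusted p to between 0.0510 and 0.0857.

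Scap, the escort of SREBP2, gave 21.1, 19.6 and 20.7 TPM in M0 and 20.3, 20.7 and 20.2 TPM in M2, with a log2 fold change of 0.00 (95% interval -0.12 to 0.12, limma). On median-scaled TPM Scap was 0.16 higher and passed (adjusted p = 0.0325), so its direction depends on the scale. Without M0 replicate 2 it was -0.03, and 18.6% of its exon bases also lie in 5830462I19Rik on the other strand. Mbtps1 and Mbtps2 encode the site-1 and site-2 proteases. Mbtps1 ranged from 26.9 to 28.3 TPM in M0 and from 25.7 to 27.3 TPM in M2 and did not pass on either scale (-0.06 and 0.10). Mbtps2 gave 10.3, 12.2 and 10.6 TPM in M0 and 9.06, 9.22 and 8.92 TPM in M2, and its fall of -0.25 (adjusted p = 0.0135, limma) became -0.10 (adjusted p = 0.232) on median-scaled TPM. Stard4, a soluble carrier that moves cholesterol between membranes and a known SREBP2 target, gave 11.4, 12.7 and 11.4 TPM in M0 and 8.14, 7.97 and 8.42 TPM in M2. It fell by 0.48 on the log2 scale (SE 0.0678, adjusted p = 1.38e-04, limma), and by 0.33 on median-scaled TPM.

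Over 15 alternative settings of scale, filter, pseudocount, test and libraries, 11 members passed in the same direction in every one: Dhcr7 and Mvd rose, and Idi1, Fdps, Sqle, Cyp51, Lbr, Msmo1, Hsd17b7, Sc5d and Stard4 fell. How many of all genes tested passed in every setting was not computed, so this count is no result about the pathway as a whole. The smallest change of Dhcr7 among these settings was 0.98 and that of Lbr -0.64.

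Ratios of 2 genes within a library do not depend on how libraries are scaled. They were formed for pairs at related steps, chosen after the values were seen, and are given as a description. The level of Lbr over that of Tm7sf2, the paired reductases, was 1.22, 1.49 and 1.26 in M0 and 0.751, 0.548 and 0.681 in M2, so Lbr was the more abundant in every M0 library and Tm7sf2 in every M2 library. The level of Dhcr7 over Sc5d, the enzyme before it, was 0.532 ± 0.0385 in M0 and 1.80 ± 0.0548 in M2 (SD, n = 3 each), so the order of these 2 genes also turned. The ratio of Mvd to Idi1 went from 6.04 ± 0.812 to 16.3 ± 2.49, and that of Insig1 to Insig2 from 2.83 ± 0.396 to 1.87 ± 0.0612 (SD, n = 3 each). Fdft1 over Sqle, consecutive enzymes at squalene, went from 1.84 ± 0.0953 to 2.98 ± 0.0739, within the limit given for Fdft1. In none of these ratios did the groups overlap; with 3 against 3 libraries an exact permutation test cannot go below a p of 0.1.

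**Figure D3:**
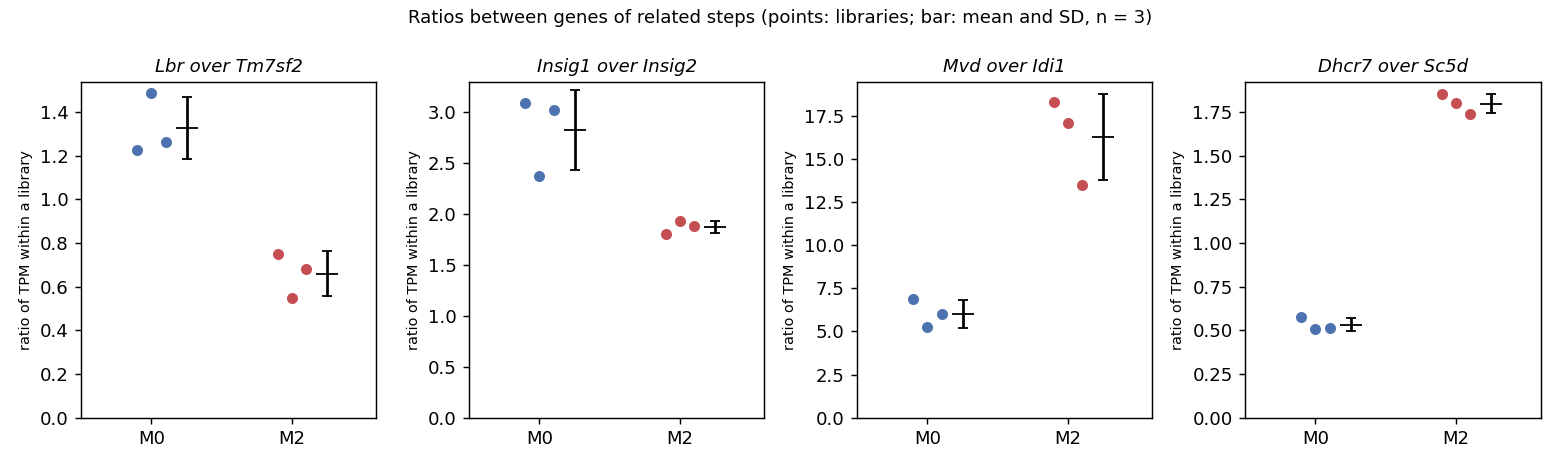
Ratio of the TPM of 2 genes within each library; blue points are M0 and red points M2 libraries, and bars give the mean and SD of 3 libraries. The groups do not overlap in any panel, and Lbr over Tm7sf2 and Dhcr7 over Sc5d cross 1 between M0 and M2.

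The genes next to the members were looked at after the values were known. With another gene's start within 1000 bases, on the opposite strand and pointing away, there were 6 members, and the partner of 5 was tested. Nadsyn1, an NAD synthetase gene that starts 315 bases from Dhcr7, gave 2.67, 2.05 and 2.32 TPM in M0 and 4.00, 4.39 and 4.42 TPM in M2, and rose together with Dhcr7 (log2 fold change 0.66, SE 0.0915, adjusted p = 1.30e-04, limma; 0.79 on median-scaled TPM). The noncoding gene 9330133O14Rik, 234 bases from the start of Mvd, gave 1.51, 1.17 and 1.94 TPM in M0 and 2.35, 2.98 and 2.60 TPM in M2 and also rose (0.53, adjusted p = 0.00324, limma; 0.64 on median-scaled TPM). Mmab, a cobalamin enzyme gene 242 bases from the start of Mvk, rose by 0.29 (adjusted p = 0.0144, limma; 0.42 on median-scaled TPM), while Mvk itself passed only on median-scaled TPM. None of the partners Nadsyn1, 9330133O14Rik and Mmab overlapped between groups, whereas the values of the member Mvk did.

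The other 2 tested partners did not follow that pattern. Cetn2, 177 bases from Nsdhl, fell by 0.24 (adjusted p = 0.00896, limma), a call lost on median-scaled TPM (-0.08), and Arid4b, 296 bases from Ggps1, did not pass. The partner of Hsd17b7, 3110045C21Rik, had 10 reads in M0 and 6 in M2 and was not tested. Over the whole table, pairs of this kind with both genes tested were counted from each gene's side. In 193 cases the gene rose, and in 60 of these its partner rose too (31.1%). On median-scaled TPM it was 160 of 391 (40.9%). A pair in which both genes rose is counted from both sides. Mvd has a second neighbour that rose, Cyba, a subunit of the phagocyte oxidase whose gene starts 656 bases beyond its end on the same strand, which went from 955 ± 131 to 1369 ± 11.3 TPM (SD, n = 3 each; log2 fold change 0.53, adjusted p = 0.00295, limma; 0.70 on median-scaled TPM). The deposited spans of Cyba and Mvd do not overlap, and whether reads of one entered the other was not tested. Farther from Mvd, Gm20735 at 1846 bases averaged 0.676 TPM (M0) and 1.22 TPM (M2) and passed the filter through M2 alone. The deposited spans of Gm20735 and 9330133O14Rik overlap on opposite strands, and whether they share reads was not tested. Zc3h18 at 16236 bases fell by 0.18 on the log2 scale, a call lost on median-scaled TPM (-0.01). Farther from Dhcr7, Mrgpre at 38667 bases rose by 0.84 (0.99 on median-scaled TPM) and Cttn at 587314 bases by 0.85 (0.99), both more than Nadsyn1, and Ppfia1 at 628345 bases did not pass (-0.09).

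**Figure D4:**
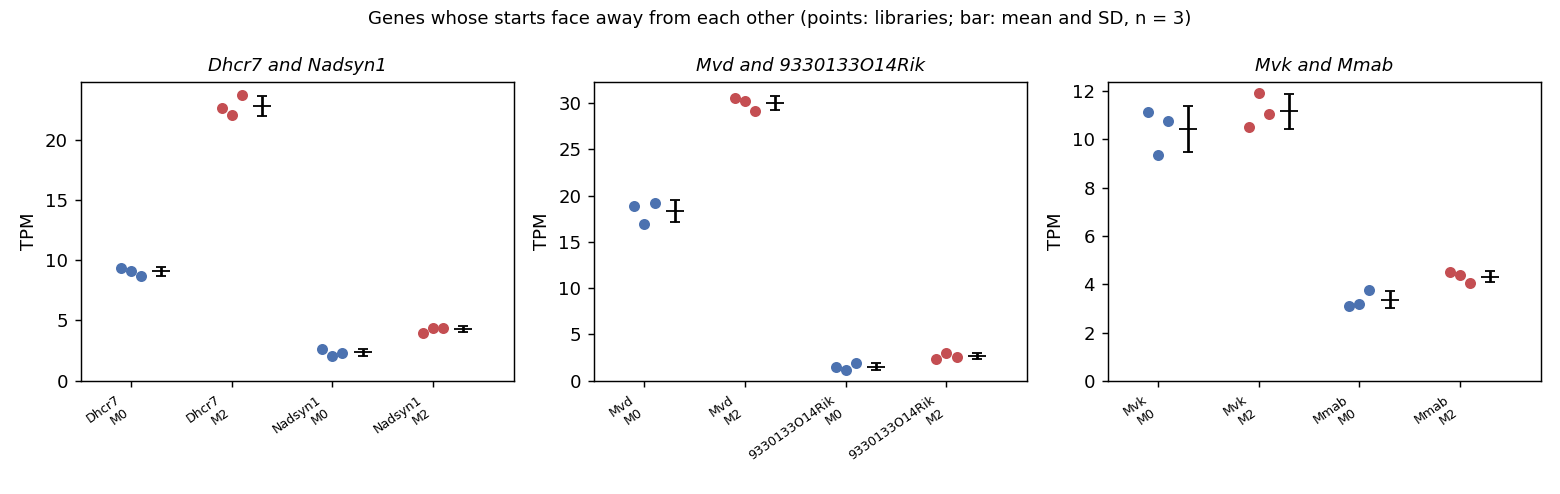
TPM of 3 members and of the gene whose start faces away from theirs within 1000 bases; blue points are M0 and red points M2 libraries, and bars give the mean and SD of 3 libraries. Nadsyn1 (2.35 to 4.27 TPM) and 9330133O14Rik (1.54 to 2.64 TPM) are higher in M2 as Dhcr7 and Mvd are, at lower levels, and Mmab is higher (3.36 to 4.31 TPM) while the values of Mvk overlap.

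Further genes of sterol and isoprenoid metabolism were taken from lists apart from the 27. Of 9 tested genes in the list of other sterol pathway genes and SREBP targets, 1 rose and 5 fell (3 and 3 on median-scaled TPM). Lpin1, a phosphatidate phosphatase, rose from 5.66 to 18.2 TPM (log2 fold change 1.53, and 1.69 on median-scaled TPM), and Acsl3, which activates long-chain fatty acids, fell from 7.82 to 4.27 TPM (-0.74 and -0.60).

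Of 12 tested genes of fatty acid synthesis, which SREBP1 drives, 1 rose and 8 fell (1 and 5 on median-scaled TPM). The desaturase Fads2 fell from 7.08 to 3.68 TPM (-0.79, and -0.64 on median-scaled TPM) and the NADPH-making enzyme Me1 from 5.69 to 3.51 TPM (-0.57 and -0.43). The elongase Elovl6 averaged 2.38 TPM (M0) and 0.853 TPM (M2); it passed the filter through M0 alone, so its call is no support. Of 22 genes that use isoprenoids for ubiquinone, dolichol and protein prenylation, none rose and 12 fell (2 and 7 on median-scaled TPM), with Pdss1 of ubiquinone synthesis at -0.92 (-0.79 on median-scaled TPM), the Rab escort Chml at -0.62 (-0.52) and Coq2 at -0.45 (-0.29). For these and the next lists, the shares over all genes tested are again 17.7% and 45.3% for rises and falls on the deposited scale, and 28.9% and 28.0% on median-scaled TPM, and the lists are described without a test.

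Of 12 tested genes of the machinery that degrades sterol enzymes and Insig proteins in the endoplasmic reticulum, 1 rose and 7 fell (5 and 2 on median-scaled TPM); the 3 largest changes were those of Erlin1 (-0.56, and -0.40 on median-scaled TPM), Rnf139 (-0.39 and -0.23) and Nsfl1c (-0.32, and -0.15 on median-scaled TPM, where it did not pass). Of 8 genes of oxysterol synthesis only 3 were tested, the other 5 lying under the filter, and 2 of the 3 rose on both scales, too few to set against the share of all genes. Ch25h, whose product 25-hydroxycholesterol holds SREBP2 back through the Insig proteins, gave 0.624, 1.02 and 1.28 TPM in M0 and 2.96, 5.24 and 2.78 TPM in M2 (log2 fold change 1.21, SE 0.208, adjusted p = 0.00127, limma; 1.32 on median-scaled TPM). Cyp27a1, the mitochondrial sterol hydroxylase, went from 10.1 ± 0.839 to 19.7 ± 0.876 TPM (SD, n = 3 each; log2 fold change 0.91, and 1.07 on median-scaled TPM). Both oxysterol genes separated the groups, Ch25h from 13 reads in its lowest library. Ch25h reached 1 TPM in every M2 library but not in M0 replicate 1. It passed the filter only with the M2 libraries, so its call is no support. Of 16 tested genes of sterol storage and transport, 3 rose and 8 fell (6 and 5 on median-scaled TPM); Nceh1, a cholesteryl ester hydrolase, fell from 178 to 109 TPM (-0.70, and -0.52 on median-scaled TPM) and the sterol transfer protein Gramd1b from 33.3 to 17.1 TPM (-0.91 and -0.75). The acyltransferase Soat2 averaged 1.53 TPM (M0) and 0.339 TPM (M2), from 33 reads in M2; it passed the filter through M0 alone, so its call is no support.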

How the data were processed

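Poly(A) RNA was sequenced in 3 M0 and 3 M2 libraries with a NEBNext Ultra kit, per the labels' protocols. The tools named were HOMER 4.11.1, STAR, DESeq2 and bcl2fastq, with the build mm10, per the submitters' processing notes. Whether counting used strand is not given in the sources used here. The authors deposited TPM per gene and library, with 1 transcript kept per gene, and the transcript length, per the file headers. The second table deposited by the authors gives, for M2 against M0, log2-scale values, log2 fold changes, p-values and adjusted p-values. The transformation behind its log2-scale values is not named in the header. That table keeps another transcript for 4515 genes, so the 2 tables were joined by symbol, and 3 entries shifted by commas were realigned.

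The members and lists were chosen with earlier results of these data known. All 27 members are named in pathway order, and from each other list up to 3 genes with the largest absolute change among those that passed. A gene that this rule names is not reported here. TPM times length gave whole reads within 0.1 read for 99.8% to 99.9% of nonzero values, which set the depth given here. These genes held 89.8% to 90.9% of the tags in the file headers, and their TPM summed to 542749 to 553186. Genes that reached 1 TPM in 3 or more libraries were tested with limma 3.58.1 in R 4.3.3 (limma-trend, robust, two-sided) on log2(TPM + 1), with group as the only term. Fold changes on this scale understate changes of low genes. Called means a Benjamini-Hochberg adjusted p under 0.05. Intervals are at 95%. Replicate numbers do not pair the libraries. Exon numbers and exon overlaps come from GENCODE M21, matched for 25 of 27 members, and promoters from RefSeq (GRCm38.p6). Overlap shares are of the exon bases of the matched GENCODE transcript, which can differ from the deposited length. Alternatives were pseudocounts of 0.1 and 5, no filter, at least 50 recovered reads in 3 libraries, a replicate block, each library left out, median-scaled TPM, equal totals, limma-voom on recovered reads and limma-trend on the authors' log2-scale values. Figures were drawn with matplotlib 3.10.9 and tables made with pandas 2.3.3 (Python 3.11.15).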

Additional observations from a re-analysis of the deposited data

How the results depend on the processing

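Against 4 members that rose and 14 that fell, median-scaled TPM gave 8 and 9, the authors' log2-scale values 8 and 10, and limma-voom on recovered reads 6 and 13. Without the filter on low values, which adds genes to the adjustment, 2 rose and 14 fell. Leaving out each library in turn gave 2 to 5 that rose and 13 to 15 that fell. Shares of all genes tested were computed only for the deposited scale, median-scaled TPM and the authors' deposited comparison. For the other settings, these counts do not tell whether the members or the whole table moved. Scap turned from 0.00 to 0.16 on both median-scaled TPM and the authors' log2-scale values, and passed there. For genes of the other lists, 8 rose, against 19 on median-scaled TPM, 19 on the authors' log2-scale values and 7 to 13 with each library left out, the highest without M0 replicate 2; 40 fell, against 22 and 23 on those 2 scales. Same-numbered libraries did not deviate together (correlations of 0.0050, -0.0049 and -0.0428), and a fit with a replicate block gave 3 members that rose, without Ebp (adjusted p = 0.0807, limma), and 14 that fell. Pseudocounts of 0.1 and 5, equal totals and a minimum of 50 recovered reads changed no member's call. The planned comparison of the Insig1 and Insig2 proteins was not run. Depth limits Idi1 and Acat2 most, at 70 and 89 reads in their lowest libraries.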
